A study of Homo sapiens with 15 samples.

Results

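The response of MIA PaCa-2 cells to 4 bisaminoquinoline agents, Lys05, BAQ12, BAQ13 and BAQ12O, was followed over every gene listed in the RNA sequencing (RNA-seq) files, to see which genes moved the same way with every agent, how the sizes of the changes ranked, and what moved with only 1 agent. All 15 libraries of the series were used, 12 from treated cells and 3 from control cells (Ctrl, the vehicle group of the study), with 3 libraries in each group. MIA PaCa-2 is an established human pancreatic carcinoma cell line. Every treated group received 5 µM of its agent and all 5 groups were collected at 24 h, so the agents could be compared at a matched dose and time. The study describes the BAQ13 of its RNA-seq as given in nanoparticles. It also reports stronger growth inhibition of these cells over 24 h by BAQ12 and BAQ13 than by Lys05. A matched dose was therefore not a matched effect, and agent and formulation cannot be told apart here. Lys05 is a dimeric chloroquine-type inhibitor of autophagy. BAQ12 and BAQ13 were described by the study as Lys05 hybrids carrying a hydrophobic tail, and they differ from each other by a methylene unit. BAQ12O (12O in the design text) is known here only by its code name, and nothing is said of its structure. Of 60107 genes listed, 10495 had enough reads to be tested. The labels do not say whether the 3 libraries of a group came from separate cultures, so the p-values measure the spread between these libraries, which may be technical.

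Bisaminoquinolines are weak bases that collect in acidic lysosomes and block the degradation that ends autophagy. Lysosomes also release cholesterol from incoming lipoprotein, and when cholesterol does not reach the endoplasmic reticulum, the SREBP2 transcription factor switches on the enzymes of sterol synthesis. The small circular mitochondrial genome codes for respiratory chain subunits, ribosomal RNAs (rRNAs) and transfer RNAs (tRNAs). Both of its strands are transcribed into long precursors that are cut at the tRNAs, and most of its mRNAs come from the heavy-strand transcript.

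Libraries held 1586566 to 2500551 reads on genes. BAQ12 replicate 3 stood apart from all others: of 3404 genes with a mean normalised read count of at least 100, 254 differed at least 2-fold between this library and the mean of the other two BAQ12 libraries, against 0 in each Ctrl, Lys05 and BAQ12O library and at most 22 in the remaining BAQ12 and BAQ13 libraries. BAQ13 replicate 1 lay along the same axis of the first principal component, with a score of 29.5 against 53.5 for BAQ12 replicate 3 and -15.8 to 6.19 for the others. TMSB4X, which encodes an actin-binding peptide, had a normalised read count of 77.9 in BAQ12 replicate 3 and 221 in BAQ13 replicate 1, and lay between 578 and 1545 in the other 13 libraries. The cause of this spread was not tested, and the main counts below are also given without BAQ12 replicate 3. Of the carcinoma cell markers, VIM, KRT8, KRT18 and KRT19 were detected in every library, while EPCAM and CDH1 lay at or near 0. The 8 acinar and islet markers summed to at most 1.38 in any library, and the 9 blood cell markers to at most 12.4. The 9 fibroblast markers summed to 259 to 290 in Ctrl, 213 to 230 with Lys05, 178 to 201 with BAQ12, 175 to 192 with BAQ13 and 218 to 243 with BAQ12O, and most of each sum was the collagen gene COL1A2, while DCN, LUM, PDGFRB, FAP and THY1 were at 0 in every library. This sum was lower in every treated library than in Ctrl, and its part in the results was not tested. The 6 endothelial markers summed to between 23.9 and 75.3 over the libraries, nearly all from CDH5, with PECAM1, KDR, TEK and CLDN5 at 0 in every library. In bulk RNA, fewer cells with a transcript and less of it in each cell cannot be told apart.

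A gene was called changed at a Benjamini-Hochberg adjusted p below 0.05 in limma, fitted to log2(normalised read count + 1), and fold changes below are on that scale. Lys05 changed the fewest genes, 0.238% of those tested, with 8 higher (0.0762%) and 17 lower (0.162%). BAQ12 changed 0.981% of genes, with 60 higher (0.572%) and 43 lower (0.41%). BAQ12O changed 1.48%, with 98 higher (0.934%) and 57 lower (0.543%). BAQ13 changed 5.77%, with 376 higher (3.58%) and 230 lower (2.19%). Without BAQ12 replicate 3, whose spread enters the error of every comparison, these counts became 25 (0.238%) and 26 (0.248%) for Lys05, 78 (0.743%) and 59 (0.562%) for BAQ12, 282 (2.69%) and 242 (2.31%) for BAQ12O, and 762 (7.26%) and 679 (6.47%) for BAQ13. The order of the agents by number of genes was the same with and without that library. It turned for BAQ12 and BAQ12O when calls needed a 2-fold change and only an unadjusted p of at most 0.05, with 108 and 100 genes.

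**Figure D1:**
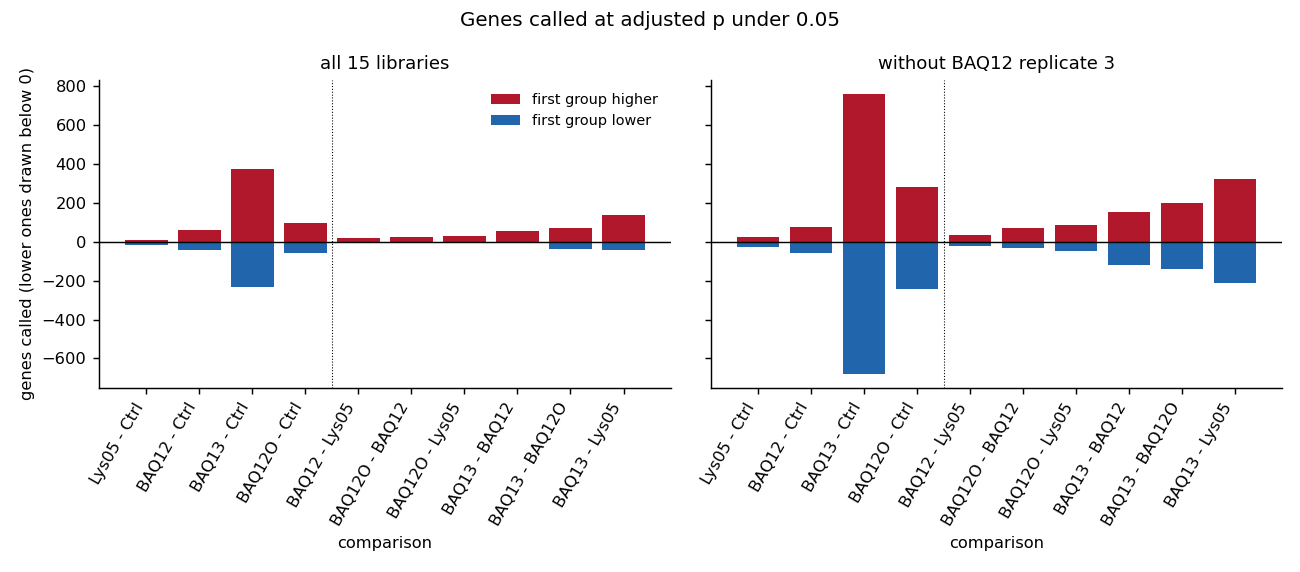
Number of genes called at adjusted p under 0.05 in each comparison (higher genes above 0, lower genes below 0; vertical axis in genes), with all 15 libraries on the left and without BAQ12 replicate 3 on the right. The 4 comparisons with Ctrl stand left of the dotted lines and the 6 comparisons between agents right of them, and BAQ13 against Ctrl has the tallest bars in both panels.

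The genes that passed the test in the same direction with all 4 agents numbered 17, with 7 higher (0.0667% of genes tested) and 10 lower (0.0953%). Of these 17 genes, 14 were encoded by the mitochondrial genome. The 3 nuclear ones were SCD and GDF15, which rose, and MCM10, which fell. The 4 comparisons use the same 3 Ctrl libraries, so agreement between them is not independent evidence. The list held 21 higher and 19 lower genes without BAQ12 replicate 3 and included all 17. No gene was called in opposite directions with different agents among the 10495 genes tested.

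Of the 10 lowered genes, 9 were heavy-strand mitochondrial mRNAs. MT-CO1 (ENSG00000198804), a catalytic subunit of cytochrome c oxidase, had normalised read counts of 4147, 4291 and 4212 in the Ctrl libraries, 1113, 1071 and 1102 with Lys05, 1495, 1561 and 1766 with BAQ12, 1792, 1653 and 1639 with BAQ13 and 2609, 2659 and 2843 with BAQ12O. Every treated library lay below every Ctrl library, and the Lys05 libraries lay lowest. Its log2 fold changes were -1.94 ± 0.07 with Lys05, -1.39 ± 0.07 with BAQ12, -1.32 ± 0.07 with BAQ13 and -0.64 ± 0.07 with BAQ12O (SE, n = 3 per group; adjusted p = 6.57e-12, 1.06e-09, 1.84e-09 and 0.000104 in limma). MT-ND3 (ENSG00000198840), a subunit of NADH dehydrogenase, had 9730, 10324 and 10062 in the Ctrl libraries, 1969, 2041 and 1921 with Lys05, 2315, 2407 and 2143 with BAQ12, 2869, 3063 and 3435 with BAQ13 and 5875, 5857 and 7175 with BAQ12O. MT-ATP6 (ENSG00000198899), a subunit of the ATP synthase, had 14683, 14288 and 13967 in the Ctrl libraries, 2482, 2636 and 2687 with Lys05, 3477, 3768 and 4688 with BAQ12, 5557, 5305 and 5993 with BAQ13 and 7769, 7373 and 9623 with BAQ12O. Both mRNAs fell with every agent, in the order Lys05, BAQ12, BAQ13 and BAQ12O from the largest fall to the smallest.

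All 12 heavy-strand mRNAs were tested, and in all 12 the 12 treated libraries lay below the 3 Ctrl libraries, against 1.38% of all genes. The median log2 fold change of the 12 was -2.23 with Lys05, -1.71 with BAQ12, -1.38 with BAQ13 and -0.61 with BAQ12O, beside medians between -0.00421 and 0.00184 over all genes. All 12 were called with Lys05, BAQ12 and BAQ13 (against 0.162%, 0.41% and 2.19% of all genes lower), and 9 with BAQ12O (0.543%). MT-CO2 (cytochrome c oxidase), MT-CYB (cytochrome b of complex III) and MT-ND5 (NADH dehydrogenase) missed the test with BAQ12O (adjusted p = 0.212, 0.064 and 0.0559), and passed it without BAQ12 replicate 3 (0.000515, 0.000565 and 2.46e-05). The order Lys05, BAQ12, BAQ13, BAQ12O held for each of the 12, which share their libraries and their precursor transcript and so are not independent. Together the 12 mRNAs took 6.01% ± 0.0948 of all reads on genes in Ctrl, 1.32% ± 0.0412 with Lys05, 1.82% ± 0.215 with BAQ12, 2.24% ± 0.12 with BAQ13 and 3.74% ± 0.189 with BAQ12O (SD, n = 3). The Ctrl libraries did not overlap any treated group in this share.

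The direct contrasts between agents, with p adjusted jointly over all genes and the 6 pairs, separated most of these levels. BAQ12O differed from Lys05 (0.324% of all genes) and from BAQ12 (0.286%) in all 12 mRNAs, and from BAQ13 (1.03%) in 11. BAQ13 differed from Lys05 (1.72%) in 11 and BAQ12 from Lys05 (0.248%) in 6. BAQ13 and BAQ12 (0.61%) differed in 2 of the 12, and in 10 without BAQ12 replicate 3 (2.59%). MT-CO1 was among those where BAQ13 and BAQ12 could not be separated, with a difference of 0.08 (95% confidence interval -0.07 to 0.23, joint adjusted p = 0.78). For MT-ATP6 the same difference was 0.51 (95% confidence interval 0.29 to 0.73, joint adjusted p = 0.0272).

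**Figure D2:**
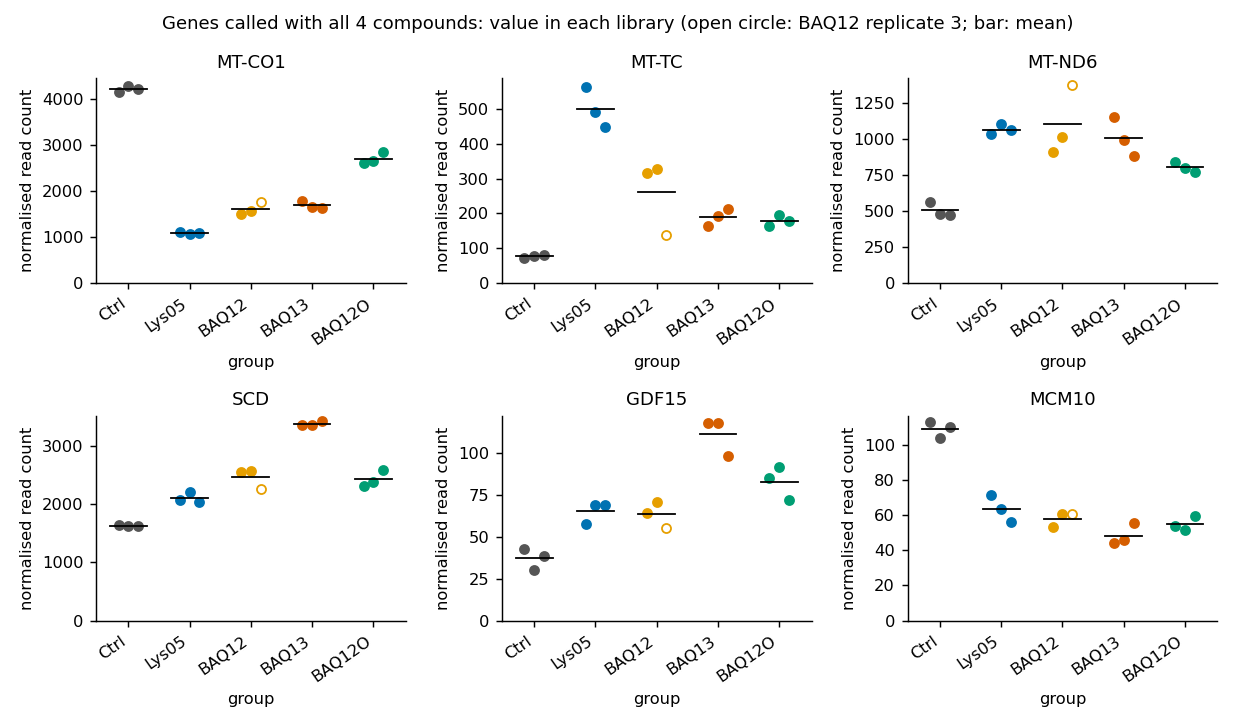
Normalised read count of 6 genes called with all 4 agents, in each of the 15 libraries (circles; open circle, BAQ12 replicate 3) with the group mean (bar) on a linear axis from 0. MT-CO1 and MCM10 lie below the Ctrl libraries in all treated libraries, and MT-TC, MT-ND6, SCD and GDF15 lie above them.

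Among 21 other RNAs of the mitochondrial genome tested, 6, 5, 6 and 6 rose and 1, 1, 3 and 0 fell with Lys05, BAQ12, BAQ13 and BAQ12O. Of all genes, 0.0762%, 0.572%, 3.58% and 0.934% rose and 0.162%, 0.41%, 2.19% and 0.543% fell. With BAQ12 replicate 3 left out, 9, 7, 10 and 10 rose and 2, 3, 6 and 0 fell. Of all genes, 0.238%, 0.743%, 7.26% and 2.69% then rose and 0.248%, 0.562%, 6.47% and 2.31% fell. The 5 called higher with every agent were MT-ND6, the NADH dehydrogenase subunit encoded on the opposite strand to the other mRNAs, the small rRNA MT-RNR1, and the tRNAs for phenylalanine (MT-TF), valine (MT-TV) and cysteine (MT-TC). Transfer RNAs carry amino acids to the ribosome. A read on a tRNA gene may come from the mature tRNA or from an uncut precursor, and these counts do not tell them apart. MT-TC had normalised read counts of 73.1, 78.2 and 79.9 in the Ctrl libraries, 562, 489 and 447 with Lys05, 316, 326 and 139 with BAQ12, 163, 193 and 214 with BAQ13 and 164, 195 and 179 with BAQ12O. All treated libraries lay above Ctrl, and the 3 Lys05 libraries lay above every other library. The log2 fold changes were 2.68 ± 0.22 with Lys05, 1.65 ± 0.22 with BAQ12, 1.28 ± 0.22 with BAQ13 and 1.21 ± 0.22 with BAQ12O (SE, n = 3; adjusted p = 7.96e-07, 0.000375, 0.00154 and 0.00833). MT-TF had 3959, 3944 and 3725 in the Ctrl libraries, 9237, 9880 and 10367 with Lys05, 8538, 9902 and 18557 with BAQ12, 15305, 10869 and 8588 with BAQ13 and 8965, 9709 and 9430 with BAQ12O. BAQ12 replicate 3 and BAQ13 replicate 1, which stood apart above, held its highest values, and without BAQ12 replicate 3 the adjusted p in the 4 comparisons was 7.61e-10, 4.02e-08, 1.79e-11 and 7.64e-09. MT-ND6 had 563, 481 and 476 in the Ctrl libraries, 1037, 1106 and 1064 with Lys05, 915, 1018 and 1379 with BAQ12, 1154, 997 and 884 with BAQ13 and 841, 804 and 775 with BAQ12O, and its log2 fold changes were 1.08 with Lys05, 1.10 with BAQ12, 0.99 with BAQ13 and 0.67 with BAQ12O. MT-ND6 lost a call on leaving out Ctrl replicate 2 or 3, MT-TC on leaving out BAQ12O replicate 2, and MT-RNR1 when genes with few reads were kept in the test.

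The 3 tRNA genes are shown as the GRCh38 reference has them, written 5′ to 3′ on the strand of each gene. They are the tRNA genes whose reads were called higher with every agent.
MT-TF, chrM:577-647, plus strand: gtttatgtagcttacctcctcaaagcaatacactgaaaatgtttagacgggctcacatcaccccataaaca
MT-TV, chrM:1602-1670, plus strand: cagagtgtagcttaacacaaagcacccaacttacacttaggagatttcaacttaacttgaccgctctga
MT-TC, chrM:5761-5826, minus strand: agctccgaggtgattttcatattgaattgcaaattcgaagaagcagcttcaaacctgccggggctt

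These RNAs were also grouped by the place of their genes, after the values were seen. The 5 adjacent genes MT-TF, MT-RNR1, MT-TV, MT-RNR2 and MT-TL1, which span chrM:577-3304 ahead of the first mRNA, had positive log2 fold changes with every agent, with medians of 0.81 with Lys05, 0.71 with BAQ12, 0.76 with BAQ13 and 1.06 with BAQ12O. MT-RNR2, the large rRNA, had the smallest values of the 5 and was called with none of the agents, with log2 fold changes of 0.26 with Lys05, 0.29 with BAQ12, 0.26 with BAQ13 and 0.34 with BAQ12O. The 8 tested genes of the minus strand, MT-ND6 and 7 tRNAs, had medians of 0.71, 1.03, 0.80 and 0.58 in the same order of agents. The 8 remaining tRNAs of the plus strand, which lie between the mRNAs or at their ends, had medians of -0.65, -0.31, -0.67 and 0.05, and the BAQ12 median was -0.54 without BAQ12 replicate 3. MT-TI, the isoleucine tRNA, had normalised read counts of 104, 129.5 and 106 in the Ctrl libraries, 51.1, 63.5 and 50.4 with Lys05, 66.0, 52.7 and 41.5 with BAQ12, 42.9, 71.1 and 73.8 with BAQ13 and 142, 133 and 119 with BAQ12O. It fell with Lys05, BAQ12 and BAQ13 (adjusted p = 0.0369, 0.00889 and 0.0136) and not with BAQ12O (0.705), and the direct difference between BAQ12O and BAQ12 was 1.30 (95% confidence interval 0.88 to 1.72, joint adjusted p = 0.002). Whether the counting used strand is not given in the sources used here, so reads of a minus-strand gene and antisense reads of the same stretch cannot be told apart. Nuclear copies of mitochondrial genes may share reads with them.

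**Figure D3:**
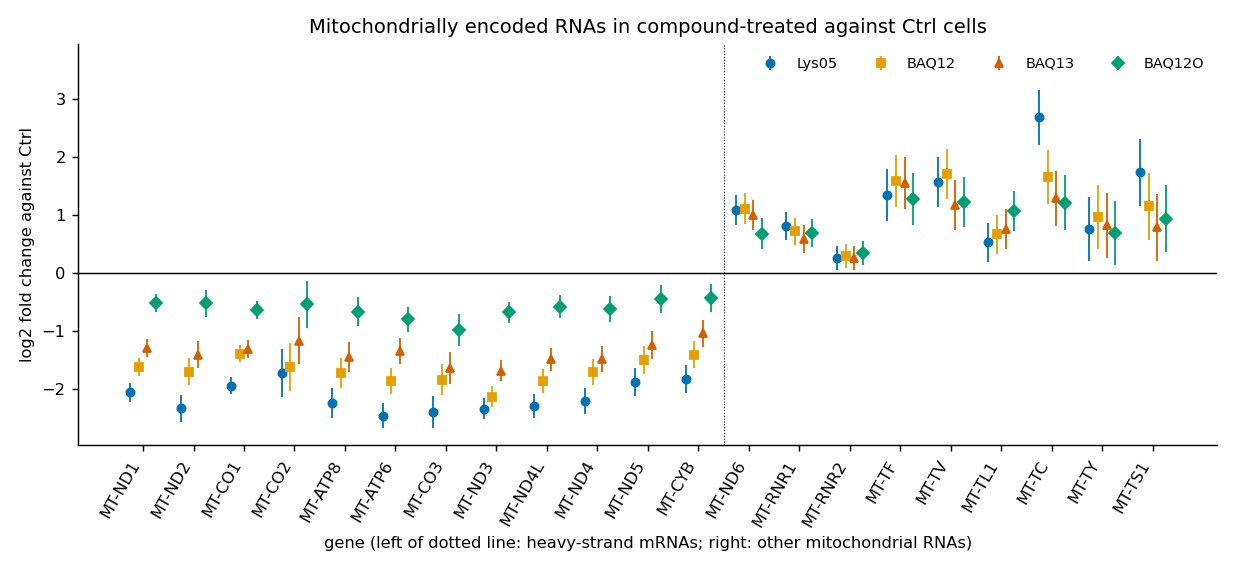
Log2 fold change against Ctrl, with 95% confidence intervals, of the 12 heavy-strand mRNAs (left of the dotted line) and of the 9 other mitochondrial RNAs whose treated libraries all lay above Ctrl (right), for the 4 agents. The 4 agents keep the same order in each heavy-strand mRNA, from Lys05 lowest to BAQ12O nearest 0, whereas no one order holds across the RNAs on the right.

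Respiratory chain subunits are also encoded in the nucleus. Of 60 nuclear subunits listed, 46 were found by their symbols and tested. Most of those not found were ATP synthase subunits, so that complex is poorly covered. None of the 46 was called with any agent, and their median log2 fold changes were -0.04, -0.06, -0.08 and -0.09 with Lys05, BAQ12, BAQ13 and BAQ12O. Of all genes, 0.0762%, 0.572%, 3.58% and 0.934% rose with these agents and 0.162%, 0.41%, 2.19% and 0.543% fell. Without BAQ12 replicate 3, 3 rose and 4 fell with BAQ13, and 2 fell with BAQ12O, when 7.26% and 6.47% of all genes rose and fell with BAQ13 and 2.31% fell with BAQ12O.

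SCD (ENSG00000099194), the desaturase that makes monounsaturated fatty acids, had normalised read counts of 1646, 1620 and 1620 in the Ctrl libraries, 2075, 2200 and 2042 with Lys05, 2557, 2569 and 2260 with BAQ12, 3356, 3349 and 3423 with BAQ13 and 2304, 2372 and 2591 with BAQ12O. No treated library overlapped Ctrl, and the BAQ13 libraries lay above all others. The log2 fold changes were 0.37 ± 0.07 with Lys05, 0.59 ± 0.07 with BAQ12, 1.05 ± 0.07 with BAQ13 and 0.57 ± 0.07 with BAQ12O (SE, n = 3; adjusted p = 0.025, 7e-05, 1.84e-08 and 0.000242). BAQ13 differed from each of the other three agents (joint adjusted p = 2.06e-05 against Lys05, 0.0017 against BAQ12 and 0.00101 against BAQ12O). BAQ12O and BAQ12 did not separate, with a difference of -0.02 (95% confidence interval -0.17 to 0.12, joint adjusted p = 0.948).

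GDF15 (ENSG00000130513), a secreted stress-induced member of the TGF-beta family, had 42.3, 30.1 and 38.6 in the Ctrl libraries, 57.5, 68.7 and 69.1 with Lys05, 64.2, 70.6 and 55.3 with BAQ12, 118, 118 and 98.1 with BAQ13 and 85.2, 91.5 and 71.7 with BAQ12O. All treated libraries lay above all Ctrl libraries, and the log2 fold changes were 0.81 ± 0.16 with Lys05, 0.77 ± 0.16 with BAQ12, 1.57 ± 0.16 with BAQ13 and 1.15 ± 0.16 with BAQ12O (adjusted p = 0.0372, 0.0217, 4.2e-06 and 0.000778). GDF15 was not called with every agent by edgeR or DESeq2 on the recovered reads, nor with a replicate block, and it lost a call on leaving out any of 10 of the 15 libraries. MCM10 (ENSG00000065328), which helps to start replication forks, had 113, 104 and 110.2 in the Ctrl libraries, 71.3, 63.5 and 56.0 with Lys05, 53.2, 60.4 and 60.3 with BAQ12, 43.9, 45.6 and 55.3 with BAQ13 and 53.9, 51.5 and 59.3 with BAQ12O. Its log2 fold changes were -0.77 ± 0.14 with Lys05, -0.90 ± 0.14 with BAQ12, -1.17 ± 0.14 with BAQ13 and -0.98 ± 0.14 with BAQ12O (adjusted p = 0.0162, 0.00147, 2.97e-05 and 0.000917), and no pair of agents was called different. The widest difference, BAQ13 against Lys05, was -0.39 (95% confidence interval -0.68 to -0.10, joint adjusted p = 0.326). MCM10 lost a call on leaving out any Ctrl library or Lys05 replicate 2 or 3, and SCD on leaving out any Ctrl or Lys05 library or BAQ13 replicate 2, with a replicate block, and when genes with few reads were kept in the test. MT-ND2 lost a call on leaving out any Ctrl or BAQ12O library.

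A wider set was called with BAQ12, BAQ13 and BAQ12O, with or without Lys05. It held 0.648% of genes tested, with 42 higher genes (0.4%) and 26 lower genes (0.248%), and 64 and 38 without BAQ12 replicate 3. In 7 of the 68, all mitochondrial and named below, the direct contrasts separated Lys05 from each BAQ agent with the larger change in Lys05. In 5 others they separated Lys05 from each BAQ agent with the larger change in the BAQ agent. MSMO1, the sterol C4 demethylase, had 69.7, 51.4 and 75.3 in the Ctrl libraries, 82.0, 73.9 and 56.0 with Lys05, 166, 187 and 178 with BAQ12, 488, 472 and 448 with BAQ13 and 139, 142 and 146 with BAQ12O. The Lys05 libraries lay within or just above the Ctrl range, and the 9 BAQ libraries lay above both. The log2 fold changes were 0.11 ± 0.14 with Lys05, 1.44 ± 0.14 with BAQ12, 2.84 ± 0.14 with BAQ13 and 1.13 ± 0.14 with BAQ12O (adjusted p = 0.999, 1.11e-05, 7.57e-10 and 0.000438). The other three higher genes were EBP, the sterol isomerase (0.20 with Lys05, 0.91 with BAQ12, 1.73 with BAQ13 and 0.68 with BAQ12O), ACSS2, which makes acetyl-CoA from acetate (-0.03 with Lys05, 1.33 with BAQ12, 2.74 with BAQ13 and 0.94 with BAQ12O), and FASN, the fatty acid synthase (0.37 with Lys05, 1.00 with BAQ12, 1.77 with BAQ13 and 0.88 with BAQ12O). The lower one was PHLDB2, which encodes a cortical adaptor protein, with 395, 418 and 377 in the Ctrl libraries, 351, 329 and 303 with Lys05, 212, 258 and 214 with BAQ12, 157, 153 and 150.0 with BAQ13 and 215, 229.8 and 215 with BAQ12O. All 4 agents' libraries lay below Ctrl, and the differences from Lys05 were -0.53 (95% confidence interval -0.73 to -0.33, joint adjusted p = 0.00886) for BAQ12, -1.09 (95% confidence interval -1.29 to -0.89, joint adjusted p = 3.55e-06) for BAQ13 and -0.57 (95% confidence interval -0.77 to -0.37, joint adjusted p = 0.0043) for BAQ12O.

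Sterol synthesis genes rose in another order. All 20 listed enzymes were tested. BAQ13 raised 18 of them (against 3.58% of all genes), BAQ12 raised 10 (0.572%), BAQ12O raised 7 (0.934%) and Lys05 raised 0 (0.0762%), and none fell. The counts were 19, 13, 9 and 1 without BAQ12 replicate 3 (against 7.26%, 0.743%, 2.69% and 0.238% of all genes). The median log2 fold change of the 20 was 1.68 with BAQ13, 0.76 with BAQ12, 0.56 with BAQ12O and 0.12 with Lys05. The largest change of the 4 was that of BAQ13 in 19 of 20 genes, and the smallest in size was that of Lys05 in 19 of 20. The 2 enzymes not called with BAQ13 were PMVK, the phosphomevalonate kinase (0.30 ± 0.21, adjusted p = 0.472) and CYP51A1, the lanosterol demethylase (1.47 ± 0.49, adjusted p = 0.0951).

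HMGCS1, which makes HMG-CoA, rose most with BAQ13. Its normalised read counts were 59.8, 56.9 and 55.1 in the Ctrl libraries, 62.8, 64.6 and 70.9 with Lys05, 183, 152 and 71.6 with BAQ12, 545, 629.8 and 657 with BAQ13 and 102, 103 and 91.0 with BAQ12O. BAQ13 libraries lay well above all others, and BAQ12 replicate 3 lay below the other two BAQ12 libraries. The log2 fold changes were 0.20 ± 0.22 with Lys05, 1.12 ± 0.22 with BAQ12, 3.39 ± 0.22 with BAQ13 and 0.77 ± 0.22 with BAQ12O, with adjusted p = 0.999, 0.0178, 1.88e-08 and 0.109, and 0.705, 7.01e-10, 1.02e-18 and 3.33e-05 without BAQ12 replicate 3. FDPS, the farnesyl diphosphate synthase, had 263, 240.1 and 253 in the Ctrl libraries, 369, 326 and 373 with Lys05, 662, 640.1 and 1041 with BAQ12, 1312, 1155 and 1016 with BAQ13 and 476, 497 and 463 with BAQ12O. It was the listed enzyme with the largest log2 fold change for Lys05 (0.50 ± 0.14, adjusted p = 0.462), which passed the test only without BAQ12 replicate 3 (0.000943).

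Between agents, BAQ13 exceeded Lys05 in 18 of the 20 enzymes (against 1.31% of all genes), BAQ12O in 16 (0.677%) and BAQ12 in 13 (0.543%). BAQ12 exceeded Lys05 in 8 (0.191%) and BAQ12O exceeded Lys05 in 2 (0.286%). Leaving out BAQ12 replicate 3 gave 19 for BAQ13 against Lys05 (3.08% of all genes), 18 against BAQ12O (1.9%) and 17 against BAQ12 (1.46%). Against Lys05 it gave 12 for BAQ12 (0.333%) and 7 for BAQ12O (0.829%). BAQ12 and BAQ12O differed in 1 enzyme (3 without that library), FDPS, where BAQ12O lay lower by a log2 difference of -0.67 (95% confidence interval -0.97 to -0.37, joint adjusted p = 0.0331), and this pair left, for example, -0.31 (95% confidence interval -0.62 to -0.01, joint adjusted p = 0.518) for MSMO1 and -0.20 (95% confidence interval -0.40 to 0.01, joint adjusted p = 0.541) for squalene epoxidase (SQLE). INSIG1, the sterol-regulated brake on SREBP processing, rose with BAQ12 and BAQ13 (0.16 with Lys05, 0.63 with BAQ12, 2.14 with BAQ13 and 0.50 with BAQ12O). Of 14 fatty acid synthesis genes, 1, 3, 9 and 3 rose with Lys05, BAQ12, BAQ13 and BAQ12O (against 0.0762%, 0.572%, 3.58% and 0.934% of all genes), and none fell. The counts were 2, 6, 9 and 3 without BAQ12 replicate 3 (against 0.238%, 0.743%, 7.26% and 2.69%).

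**Figure D4:**
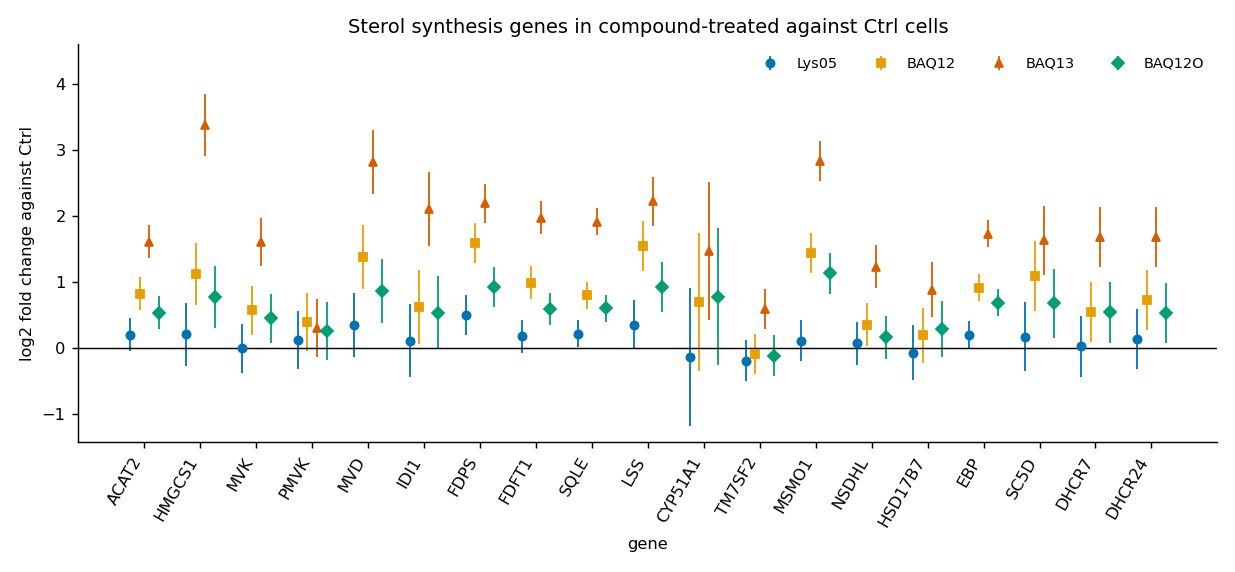
Log2 fold change against Ctrl with 95% confidence intervals of 19 of the 20 sterol synthesis enzymes for the 4 agents. BAQ13 (triangles) lies highest in 18 of the 19, and Lys05 (circles) lies nearest 0 in 18 of the 19.

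Promoter letters, which played no part in choosing the enzymes, were also searched. In the RefSeq promoter sequences (GRCh38.p14, 250 bases before to 50 after each start), the motif CCAAT, read on both strands, was found in 13 of the 15 sterol synthesis genes with an entry, against 43.7% of 7698 tested genes with an entry. A 10-base sterol regulatory element was found in 0 of the 15 and in 0.052% of the tested genes, and CACGTG in 2 of the 15 and 13.2%. A match is a description of the letters and not a test of binding. The 250 bases before the start of MSMO1 and FDPS are shown, because both genes rose with BAQ12, BAQ13 and BAQ12O, with each CCAAT (or ATTGG, its reverse complement) in capitals.
MSMO1, chr4:165327419-165327668, plus strand: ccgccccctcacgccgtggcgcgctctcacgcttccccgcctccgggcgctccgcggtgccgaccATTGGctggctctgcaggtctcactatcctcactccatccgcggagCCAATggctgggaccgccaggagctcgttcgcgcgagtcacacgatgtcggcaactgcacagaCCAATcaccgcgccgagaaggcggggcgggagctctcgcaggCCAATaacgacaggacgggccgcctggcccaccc
FDPS, chr1:155308616-155308865, plus strand: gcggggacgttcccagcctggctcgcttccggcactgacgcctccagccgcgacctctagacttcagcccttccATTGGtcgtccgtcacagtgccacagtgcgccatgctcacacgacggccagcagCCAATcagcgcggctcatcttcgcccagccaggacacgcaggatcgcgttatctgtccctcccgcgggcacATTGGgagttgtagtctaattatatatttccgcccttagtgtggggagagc

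The DNA replication list held genes that fell. Of 40 tested, 1 fell with Lys05 (against 0.162% of all genes), 3 with BAQ12 (0.41%), 14 with BAQ13 (2.19%) and 5 with BAQ12O (0.543%), and none rose. The counts of lower genes were 2, 6, 21 and 12 without BAQ12 replicate 3 (against 0.248%, 0.562%, 6.47% and 2.31% of all genes). The medians were -0.27, -0.40, -0.52 and -0.37. In 10 of the 40 no treated library overlapped Ctrl, all lower, against 1.38% of all genes. PCNA, the sliding clamp of the polymerase, had 180.2, 197 and 200.1 in the Ctrl libraries, 133, 147 and 126 with Lys05, 128, 145 and 67.8 with BAQ12, 89.6, 90.2 and 99.7 with BAQ13 and 119.7, 128 and 123 with BAQ12O. CDC6, which loads the MCM helicase at origins, had 82.2, 74.8 and 90.0 in the Ctrl libraries, 56.4, 47.9 and 43.9 with Lys05, 33.9, 43.4 and 47.7 with BAQ12, 53.2, 33.7 and 34.4 with BAQ13 and 43.1, 52.4 and 35.8 with BAQ12O. All treated libraries lay below Ctrl for both genes. The CDC6 log2 fold changes were -0.73 with Lys05, -0.98 with BAQ12, -1.04 with BAQ13 and -0.91 with BAQ12O (adjusted p = 0.371, 0.0204, 0.00373 and 0.0262), and MCM3, a helicase subunit, had -0.28 with Lys05, -0.43 with BAQ12, -0.65 with BAQ13 and -0.62 with BAQ12O (adjusted p = 0.886, 0.117, 0.00182 and 0.009).

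No DNA replication gene differed between agents in 5 of the 6 pairs, in which 0.248% to 1.72% of all genes did. The exception was UHRF1, a reader of newly replicated DNA, at low counts (12.8, 7.65 and 7.54 with BAQ12 and 2.16, 2.86 and 0 with BAQ12O, against 10.8, 14.5 and 7.34 in Ctrl). For MCM3 the difference between BAQ13 and Lys05 was -0.37 (95% confidence interval -0.62 to -0.13, joint adjusted p = 0.227) and that between BAQ12O and BAQ12 -0.19 (95% confidence interval -0.43 to 0.06, joint adjusted p = 0.655). Without BAQ12 replicate 3, BAQ13 was lower than Lys05 in 4 of the 40 genes (2.04% of all genes), than BAQ12 in 3 (1.13%) and than BAQ12O in 1 (1.32%). BAQ12O was then lower than Lys05 in 1 (0.448%) and than BAQ12 in 1 (0.314%), and no other difference was called. Of 38 mitosis genes, 2 were called lower with BAQ13 (against 2.19% of all genes) and 0 with the other three, with medians of 0.06, -0.01, -0.08 and 0.06. Without BAQ12 replicate 3, 7 were lower with BAQ13 (6.47%) and 2 higher with BAQ12O (2.69%).

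Of 33 DNA replication genes with a promoter entry, 19 held 1 of the E2F-type motifs TTTGGCGC, TTTCGCGC, TTTCCCGC or TTTGCCGC on either strand, against 7.25% of tested genes. Of the 15 sterol synthesis genes with an entry, 1 held such a motif. CCAAT was also found in 21 of the 33 DNA replication genes (63.6%, against 43.7% of tested genes), so it did not mark only genes that rose. The MCM3 promoter is shown as an example of a gene whose treated libraries all lay below Ctrl, with its match in capitals.
MCM3, chr6:52284743-52284992, minus strand: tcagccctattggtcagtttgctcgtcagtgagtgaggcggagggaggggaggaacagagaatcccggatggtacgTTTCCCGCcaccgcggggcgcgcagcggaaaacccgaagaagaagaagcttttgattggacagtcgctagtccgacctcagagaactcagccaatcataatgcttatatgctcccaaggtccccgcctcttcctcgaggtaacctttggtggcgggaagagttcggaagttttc

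The rank of the agents differed between gene groups. Over all 10495 genes, the median size of the log2 fold change was 0.13 with Lys05, 0.18 with BAQ12O, 0.19 with BAQ12 and 0.20 with BAQ13, and the 95th percentile was 0.50, 0.64, 0.66 and 0.78. Leaving out BAQ12 replicate 3 lowered the BAQ12 median to 0.14 and its 95th percentile to 0.59, both below those of BAQ12O. Changes of at least 2-fold, with no test, numbered 60 with Lys05, 105 with BAQ12O, 122 with BAQ12 and 237 with BAQ13, and 35, 97, 95 and 216 without 43 mitochondrial genes and copies. Without BAQ12 replicate 3 the BAQ12 numbers were 104 and 81, so the order of BAQ12 and BAQ12O rested on that library. Among the 17 genes called with every agent, the largest change was that of Lys05 in 11, of BAQ12 in 3 and of BAQ13 in 3, and the smallest that of BAQ12O in 12. The ratio of the largest to the smallest log2 fold change ran from 1.24 for MT-TF to 4.42 for MT-ND2. No pair of agents was called different in MT-TF, MT-TV, MT-RNR1, MT-ND6 or MCM10, and the interval for MT-TF between BAQ12 and BAQ12O was wide, with a log2 difference of -0.31 (95% confidence interval -0.76 to 0.14, joint adjusted p = 0.69) for BAQ12O minus BAQ12.

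**Figure D5:**
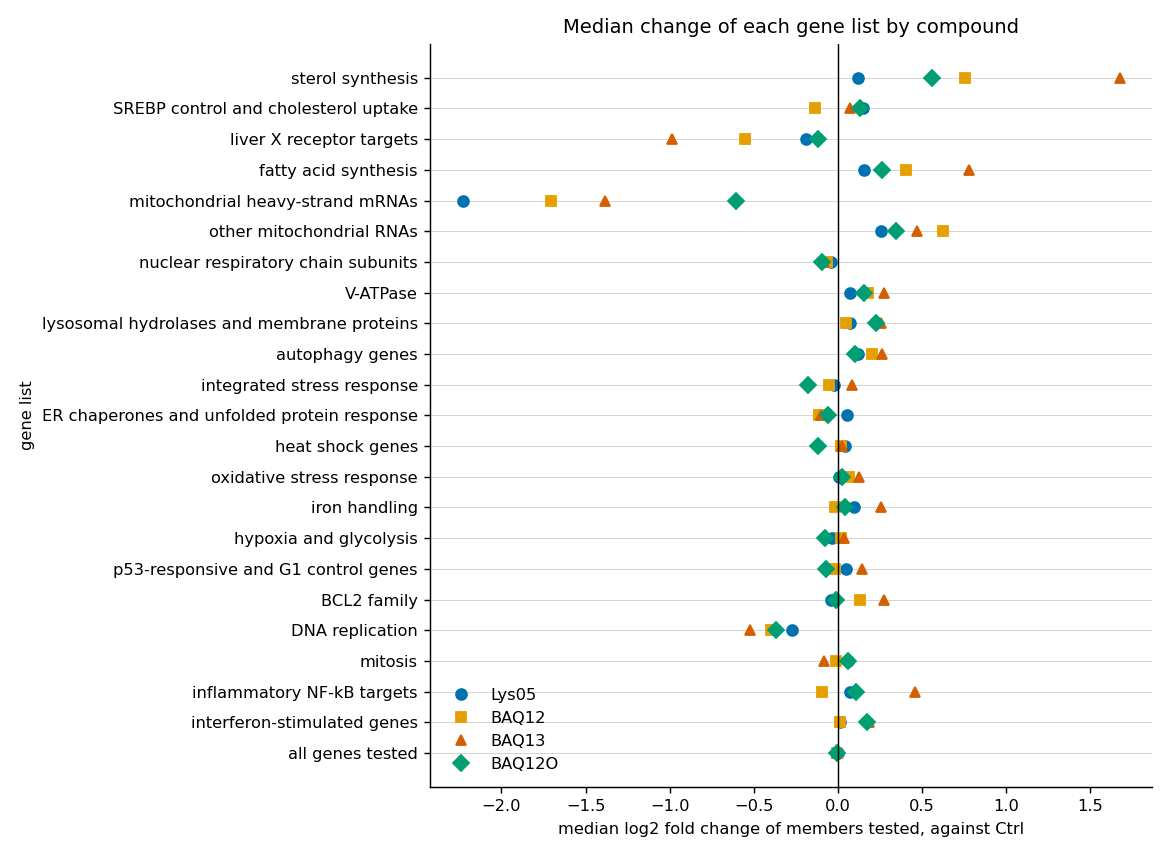
Median log2 fold change against Ctrl of the tested members of 22 gene lists and of all genes tested, for the 4 agents. Lys05 has the lowest value of the heavy-strand mRNAs and a value near 0 for sterol synthesis, and BAQ13 has the highest value for sterol synthesis.

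To set the profiles side by side without a shared control, each agent was measured against 1 Ctrl library and its partner against another, over the 6 possible assignments. Across 3404 genes with a mean of at least 100, the Pearson correlation had a median of 0.704 for BAQ12 and BAQ13 (range 0.645 to 0.728), 0.619 for BAQ13 and BAQ12O (0.562 to 0.654) and 0.581 for BAQ12 and BAQ12O (0.459 to 0.609). For Lys05 it was 0.55 with BAQ12 (0.376 to 0.573), 0.474 with BAQ13 (0.361 to 0.509) and 0.435 with BAQ12O (0.36 to 0.496). Without mitochondrial genes and copies (3377 genes), the 3 Lys05 values were 0.359, 0.374 and 0.382, and those among the BAQ agents were 0.673, 0.596 and 0.556. Without BAQ12 replicate 3 as well, BAQ12 with BAQ13 gave 0.536 and BAQ12 with BAQ12O 0.376, so the order among BAQ pairs rested in part on that library. BAQ12 with BAQ12O was then no higher than Lys05 with BAQ12O (0.382), whereas BAQ12 with BAQ13 stayed above every Lys05 value. Over the 3404 genes without that library, Lys05 with BAQ12 gave 0.571. This lay above BAQ12 with BAQ12O (0.427) and near BAQ12 with BAQ13 (0.594). Over all 10495 genes tested and with all libraries, the medians were lower, with 0.41, 0.348 and 0.292 for the BAQ pairs in the order first given. They were 0.194, 0.216 and 0.181 for Lys05 with BAQ12, BAQ13 and BAQ12O. These are descriptions across genes, which are not independent, and the treated libraries may share sources of spread.

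Across all genes, the 6 pairs of agents differed in 26 genes for BAQ12 against Lys05 (0.248%), 180 for BAQ13 against Lys05 (1.72%), 34 for BAQ12O against Lys05 (0.324%, of which 4 lower with BAQ12O, 0.0381%), 64 for BAQ13 against BAQ12 (0.61%), 30 for BAQ12O against BAQ12 (0.286%) and 108 for BAQ13 against BAQ12O (1.03%). Setting aside BAQ12 replicate 3 gave 57, 537, 134, 272, 104 and 338. BAQ12 and BAQ13, which differ by a methylene unit, differed in 57 genes higher and 7 lower with BAQ13, and 20 of the 64 belonged to the lists of sterol synthesis, fatty acid synthesis and SREBP control. The interval of their difference lay within 1 log2 unit either way for 8948 of the 10495 genes (85.3%), and for 98.7% of the genes with a mean of at least 100. Of the 30 genes that separated BAQ12O from BAQ12, 15 were mitochondrial genes or their copies, all higher with BAQ12O, and 1 was a sterol or lipid gene. The interval lay within 1 log2 unit for 84.2% of genes in that pair and for 83.3% for BAQ12 against Lys05.

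SLC2A6, a lysosomal hexose transporter of the GLUT family, showed the difference between BAQ13 and BAQ12 among genes outside the sterol lists. It had 29.1, 22.3 and 18.4 in the Ctrl libraries, 19.2, 22.9 and 28.9 with Lys05, 42.2, 33.2 and 31.4 with BAQ12, 105, 101 and 118 with BAQ13 and 38.8, 29.6 and 42.7 with BAQ12O. Only the BAQ13 libraries lay above 100, and the difference from BAQ12 was 1.58 (95% confidence interval 1.14 to 2.02, joint adjusted p = 0.000396). BIRC3, an inhibitor of apoptosis and a target of NF-kB, had 24.1, 21.2 and 25.7 in the Ctrl libraries, 27.7, 31.2 and 29.9 with Lys05, 35.8, 34.9 and 33.9 with BAQ12, 99.8, 111 and 106 with BAQ13 and 24.8, 41.0 and 27.6 with BAQ12O. The difference from BAQ12 was 1.57 (95% confidence interval 1.20 to 1.95, joint adjusted p = 7.56e-05). NABP1, a single-stranded DNA binding protein, was lower with BAQ12 than with Lys05 by a log2 difference of -0.77 (95% confidence interval -1.14 to -0.41, joint adjusted p = 0.0449), and MRPL33, a mitochondrial ribosomal protein, was lower with BAQ12O than with Lys05 by -0.67 (95% confidence interval -0.92 to -0.41, joint adjusted p = 0.00819).

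What moved with only 1 agent was counted in 2 ways. Genes called with BAQ13 and with no other agent numbered 288 higher and 174 lower (2.74% and 1.66% of genes tested), against 26 and 16 for BAQ12O, 2 and 2 for BAQ12, and 1 and 1 for Lys05. With BAQ12 replicate 3 set aside they numbered 556 and 508, 91 and 85, 0 and 5, and 0 and 0. Most of these were not shown to differ between agents. Genes called with BAQ13 and different from each of the other three in the direct contrasts numbered 37 higher (0.353%) and 5 lower (0.0476%), and 20 and 3 of these were called with no other agent. They became 83 and 21 without BAQ12 replicate 3, of which 46 and 14 were called with no other agent. The 20 included the mevalonate and sterol enzymes IDI1, MVK, NSDHL, DHCR7 and TM7SF2, the citrate lyase ACLY, the fatty acid elongase ELOVL6, BIRC3 and SLC2A6. The 3 lower genes were CTSC, the lysosomal dipeptidyl peptidase, IGF2BP3, an mRNA-binding protein, and VEPH1.

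CTSC had 2579, 2577 and 2625 in the Ctrl libraries, 2781, 2665 and 2570 with Lys05, 2504, 2542 and 2034 with BAQ12, 1632, 1726 and 1664 with BAQ13 and 2431, 2394 and 2687 with BAQ12O. The 3 BAQ13 libraries lay below all 12 others, and the log2 fold change with BAQ13 was -0.63 ± 0.08 (adjusted p = 6.38e-05). VEPH1 had 93.0, 84.9 and 81.7 in the Ctrl libraries, 78.8, 86.4 and 93.3 with Lys05, 89.9, 75.7 and 86.7 with BAQ12, 54.1, 52.9 and 52.8 with BAQ13 and 73.3, 78.2 and 96.5 with BAQ12O. Its BAQ13 libraries again lay below the 12 others (-0.69 ± 0.13, adjusted p = 0.00363). COL5A2, a fibrillar collagen chain, was lower with BAQ13 than with each other agent and also fell with BAQ12 (-0.01 with Lys05, -0.28 with BAQ12, -0.62 with BAQ13 and -0.16 with BAQ12O).

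For Lys05, 1 gene rose and 6 fell beyond each of the other three agents (0.00953% and 0.0572%): MT-TC, and MT-ND1, MT-ND2, MT-CO1, MT-ATP6, MT-ND4L and MT-ND4. All 7 were also called with every other agent, so none of the 7 was called with Lys05 alone. The counts were 1 and 9 without BAQ12 replicate 3. For BAQ12 and BAQ12O, 0 genes met this rule in limma, in edgeR or in DESeq2. Against Ctrl at an unadjusted p below 0.05, 1239 (11.8%) and 1339 genes (12.8%) had passed for these agents. Without BAQ12 replicate 3, ZNF252P, a pseudogene, met it for BAQ12, and NRP2 and ANKRD26 met it for BAQ12O. NRP2, a co-receptor for semaphorins and VEGF, had 210.0, 219 and 166 in the Ctrl libraries, 231, 219.7 and 255 with Lys05, 192, 199.8 and 353 with BAQ12, 236, 214 and 209 with BAQ13 and 374, 402 and 349 with BAQ12O. The BAQ12O libraries lay above all others apart from BAQ12 replicate 3, which overlapped them, and the log2 fold change was 0.92 ± 0.17 (adjusted p = 0.009).

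Lastly, genes were taken whose 12 treated libraries all lay on 1 side of the 3 Ctrl libraries, whatever the test. They made up 3.04% of genes tested, with 174 higher (1.66%) and 145 lower (1.38%). With the 11 treated libraries left after BAQ12 replicate 3 was set aside, they made up 3.71%, with 211 higher (2.01%) and 178 lower (1.7%). The higher genes with the largest mean change included FAM213A, a redox enzyme, ALDOC, the brain-type aldolase, and NDRG4. FAM213A had 1.66, 4.47 and 5.51 in the Ctrl libraries, 10.6, 10.4 and 11.2 with Lys05, 13.8, 11.9 and 11.3 with BAQ12, 26.1, 30.1 and 39.4 with BAQ13 and 21.6, 16.2 and 22.1 with BAQ12O, with log2 fold changes of 1.37 with Lys05, 1.54 with BAQ12, 2.83 with BAQ13 and 2.19 with BAQ12O (adjusted p = 0.117, 0.0168, 1e-05 and 0.000815). NDRG4 had 7.47, 10.05 and 13.8 in the Ctrl libraries, 18.1, 18.7 and 22.4 with Lys05, 29.3, 31.5 and 25.1 with BAQ12, 70.0, 67.4 and 60.3 with BAQ13 and 35.6, 46.7 and 46.9 with BAQ12O. ALDOC had 10.8, 12.3 and 8.26 in the Ctrl libraries, 25.6, 12.5 and 14.9 with Lys05, 25.7, 34.9 and 46.5 with BAQ12, 74.7, 85.7 and 62.0 with BAQ13 and 32.3, 21.9 and 38.6 with BAQ12O. All of them were called with BAQ12, BAQ13 and BAQ12O and not with Lys05 (adjusted p = 0.117, 0.173 and 0.93). Without BAQ12 replicate 3, FAM213A was called with Lys05 as well (adjusted p = 0.0362 in limma). Its value of 1.66 in Ctrl replicate 1 lay below 3 reads, so its fold changes rest on few Ctrl reads. IL21R, PLA2G3, ZFP36, HSPBAP1 and the mitochondrial rRNA-like MTRNR2L9 also qualified, but their Ctrl values were at most 4.98 and mostly below 3 reads, so no fold is given. PSMC3IP, a partner of the recombinases in homologous recombination, was among the lower genes, with 14.9, 17.9 and 14.7 in the Ctrl libraries, 8.52, 6.25 and 8.40 with Lys05, 6.42, 5.95 and 2.51 with BAQ12, 4.67, 3.65 and 5.87 with BAQ13 and 6.47, 4.77 and 2.76 with BAQ12O. It passed the test with BAQ12, BAQ13 and BAQ12O, and with BAQ12 it did not pass without replicate 3 (adjusted p = 0.212).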

How the data were processed

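RNA of MIA PaCa-2 cells was sequenced by the authors, and the deposited signal of each gene is a count of reads scaled by the library's size factor. The submitters' processing notes name STAR, HTSeq, DESeq2 and GRCh38 (hg38). Versions, strand setting and annotation release are not given in the sources used here. The labels name a QuantSeq 3′ kit and the methods a stranded paired-end kit. Dividing each value by the value of 1 read gave whole reads (tolerance 0.01) for 100% of genes. The 92 spike-in identifiers held 0 reads. Depth was 1586566 to 2500551 reads on genes, and 3 reads equal 2.49 to 4.14 normalised counts.

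Genes kept by filterByExpr (minimum count 10, total 15; 10495 genes) were fitted with limma 3.58.1 (R 4.3.3, trended empirical Bayes) on log2(value + 1), with 5 groups, no covariate and all 15 libraries. limma was used because the deposited unit is a signal and not counts. p-values were Benjamini-Hochberg adjusted per comparison with Ctrl, and jointly over genes and the 6 pairs of agents for direct contrasts. Intervals are 95% limma intervals. edgeR 4.0.16 and DESeq2 1.42.0 on the recovered reads, other scalings, filters and pseudocounts, and leaving out libraries were alternatives. On the recovered reads, edgeR called 24, 102, 689 and 160 genes and DESeq2 27, 112, 530 and 139 with Lys05, BAQ12, BAQ13 and BAQ12O. Scripts were tested on simulated data. Members and gene lists were chosen with earlier results of these data known. Named genes were those called with every agent, up to 5 per direction specific to an agent, up to 4 members per list with the smallest p for the mean of the 4 agents, up to 8 per direction separating Lys05 from the other three, up to 10 per direction without overlap, and up to 3 per direction per pair, and also all sterol and mitochondrial list members. TMSB4X, PCNA, NRP2, ANKRD26, ZNF252P and the carcinoma markers were added after their values were seen. Replicate numbers were not treated as pairing the libraries. Coordinates of mitochondrial genes are from GENCODE release 29 (GRCh38), and promoters from RefSeq. Some list members are counted but not reported here by name.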

Additional observations from a re-analysis of the deposited data

How the results depend on the processing

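Counts of genes rested on the libraries that stood apart. With array weights the counts against Ctrl were 73 for Lys05, 626 for BAQ12, 2333 for BAQ13 and 700 for BAQ12O, with 58 shared by all 4, 213 by the 3 BAQ agents and 986 for the mean of the 4. The pairs gave 350 for BAQ12 against Lys05, 1195 for BAQ13 against Lys05, 285 for BAQ12O against Lys05, 1326 for BAQ13 against BAQ12, 579 for BAQ12O against BAQ12 and 852 for BAQ13 against BAQ12O. Genes different from all the others numbered 15 for Lys05, 17 for BAQ12, 317 for BAQ13 and 22 for BAQ12O. Leaving out both BAQ12 replicate 3 and BAQ13 replicate 1, an alternative chosen after seeing the data, gave in the same order 97, 222, 1256 and 974, then 65, 151 and 774, then 100, 519, 280, 261, 297 and 446, then 13, 1, 117 and 26. Fitting only the 6 libraries compared gave 115, 31, 947 and 871 against Ctrl. A fold change of at least 2 with unadjusted p of at most 0.05 gave 57, 108, 227 and 100 genes, and 11 shared, with 11 higher and 0 lower. The order of BAQ12 and BAQ12O turned under this rule, and that of Lys05 and BAQ12 when only 6 libraries were fitted. Leaving out single libraries gave 19 to 51, 56 to 137, 320 to 1441 and 75 to 524 against Ctrl, 12 to 40 shared by all 4, 38 to 102 by the 3 BAQ agents, 112 to 563 for the mean, 12 to 57, 108 to 537, 22 to 134, 35 to 272, 22 to 104 and 62 to 338 for the pairs, and 2 to 11, 0 to 1, 27 to 104 and 0 to 2 for genes different from all the others. Among these omissions of a single library, the highest counts against Ctrl for each of the 4 agents, and of shared genes, came without BAQ12 replicate 3. The cause was not tested. Of called values of named genes, none reversed under any of these alternatives. Genes with few reads were not tested.

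The replicate block (the replicate number as a term) gave 21, 77, 512 and 119 genes against Ctrl and 15 shared, within 1.5 times the values without it. Deviations of same-numbered libraries correlated between -0.492 and 0.2. Differently numbered libraries were not compared, so these values cannot decide whether the numbers pair the libraries.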

Other observations

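The counts of the lists below are to be read against the share of all genes that rose, 0.0762%, 0.572%, 3.58% and 0.934% with Lys05, BAQ12, BAQ13 and BAQ12O, and that fell, 0.162%, 0.41%, 2.19% and 0.543%. With BAQ12 replicate 3 left out, 0.238%, 0.743%, 7.26% and 2.69% rose and 0.248%, 0.562%, 6.47% and 2.31% fell. Of 53 lysosomal hydrolases and membrane proteins tested, 0, 3, 11 and 2 rose with Lys05, BAQ12, BAQ13 and BAQ12O, and 2 fell with BAQ13. Without that library 0, 3, 17 and 6 rose, and 2 fell with BAQ13. Of 40 autophagy genes, 0, 4, 9 and 6 rose, and 1 fell with BAQ13, and the numbers without it were 0, 4, 13 and 7, and 1. SQSTM1, the p62 autophagy receptor, had normalised read counts of 282, 309 and 312 in the Ctrl libraries, 333, 345 and 349 with Lys05, 399, 430.1 and 578 with BAQ12, 720.4, 659.9 and 709.9 with BAQ13 and 489, 543 and 474 with BAQ12O. Every treated library lay above Ctrl, and the log2 fold changes were 0.19 with Lys05, 0.62 with BAQ12, 1.21 with BAQ13 and 0.73 with BAQ12O (adjusted p = 0.999, 0.00661, 1.29e-06 and 0.00163 in limma). RRAGD, a GTPase that links amino acids to mTORC1 at the lysosome, had 120.4, 112 and 117 in the Ctrl libraries, 138, 139 and 137 with Lys05, 183, 185 and 244 with BAQ12, 328, 265 and 269 with BAQ13 and 172, 180.2 and 199.9 with BAQ12O, again with no overlap. Of 16 subunits of the V-ATPase, the pump that acidifies lysosomes, 4 rose with BAQ13 and 0 with the other three, and 7 with BAQ13 and 1 with BAQ12O without the library. In the direct contrasts 0 of the 16 differed in any of the 6 pairs of agents. Without the library, BAQ13 exceeded Lys05 in 4 (3.08% of all genes), BAQ12O in 4 (1.9%) and BAQ12 in 0 (1.46%). SLC7A5, a large neutral amino acid transporter, fell with BAQ12, BAQ13 and BAQ12O (-0.29 with Lys05, -0.67 with BAQ12, -0.77 with BAQ13 and -0.80 with BAQ12O).

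Targets of the liver X receptor, a sterol sensor that drives cholesterol export, were called changed with BAQ13. Of 5 tested, the cholesterol transporters ABCA1 and ABCG1 and the ubiquitin ligase MYLIP fell and the apolipoprotein APOC1 rose, and 0 were called with the other three. Without BAQ12 replicate 3, 4 fell and 1 rose with BAQ13. The medians of the 5 were -0.19, -0.55, -0.99 and -0.115 with Lys05, BAQ12, BAQ13 and BAQ12O. In the direct contrasts 0 of the 5 differed between BAQ13 and BAQ12, with or without that library, so a difference between these agents was not shown. Against Lys05, BAQ13 was higher in 1 and lower in 2 (1.31% and 0.4% of all genes). ABCG1 had 23.2, 23.4 and 25.7 in the Ctrl libraries, 25.6, 28.1 and 21.5 with Lys05, 14.7, 8.50 and 11.3 with BAQ12, 7.47, 7.29 and 3.35 with BAQ13 and 17.2, 17.2 and 9.65 with BAQ12O. All BAQ12, BAQ13 and BAQ12O libraries lay below all Ctrl and Lys05 libraries, and the BAQ13 libraries lay lowest. Of 10 inflammatory NF-kB targets, 3 rose with BAQ13 (5 without BAQ12 replicate 3) and 0 with the other three. Of 18 oxidative stress genes, 4 rose with BAQ13 and 0 with the other three, and without the library 8 rose with BAQ13 and 2 rose and 1 fell with BAQ12O. Of 24 genes of the integrated stress response, BAQ13 raised 4 and lowered 1, and BAQ12 and BAQ12O each lowered 1. Without the library BAQ12 raised 1 and lowered 1, BAQ13 raised 8 and lowered 4, and BAQ12O raised 3 and lowered 4. The stress factor DDIT3 had 0.41 with Lys05, 0.57 with BAQ12, 1.04 with BAQ13 and 0.80 with BAQ12O. The ER chaperones (20 tested) gave 1 lower gene with BAQ13, and 2 without the library. The heat shock (13), BCL2 family (12) and interferon (9) lists gave 0 with any agent, and without the library BAQ13 raised 3, 2 and 1 of them and lowered 1, 1 and 0, and BAQ12O lowered 1 heat shock gene.

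Of 27 hypoxia and glycolysis genes, 0, 1, 3 and 3 rose and 1 fell with BAQ13, and without BAQ12 replicate 3, 0, 1, 5 and 4 rose and 2 fell with each of BAQ13 and BAQ12O. Of 15 p53-responsive and G1 genes, 1, 1, 2 and 1 rose and 1 fell with BAQ12O, and without the library 1, 2, 4 and 1 rose and 2 fell with BAQ12O. Of 10 iron genes 1 rose with BAQ13 and 1 fell with BAQ12O, and without the library 2 rose and 1 fell with BAQ13, and 1 rose and 1 fell with BAQ12O. KRT8, a keratin of epithelial cells, had 315, 349.5 and 330.5 in the Ctrl libraries, 248, 267 and 245 with Lys05, 238, 235 and 193 with BAQ12, 175, 178 and 199 with BAQ13 and 235, 223 and 199.9 with BAQ12O, below Ctrl in every treated library. KRT18, its partner, also lay below Ctrl in all of them (-0.30 with Lys05, -0.31 with BAQ12, -0.50 with BAQ13 and -0.43 with BAQ12O).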
